A study of Mus musculus with 12 samples.

Results

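The genes described here are 38 mouse genes that keep protein quality in the endoplasmic reticulum (ER): 13 chaperones with their co-chaperones, 12 isomerases and 13 genes of ER-associated degradation (ERAD). They were taken by symbol from the transcripts of each library, and all 38 had a read in at least 1 library, among 15803 transcripts with a read. The list is called one of disulfide isomerases, but Fkbp2 and Ppib are prolyl isomerases and Erp29 belongs to the disulfide isomerase family without being known to exchange disulfides. KPC cells, a pancreatic ductal adenocarcinoma (PDAC) line from mice with Trp53 LSL-R172H among their alleles and Pdx1-Cre, were given PBS (labelled without treatment) or 20 μM cisplatin (Cis), a DNA-damaging chemotherapy drug, for 6 or 21 h. All groups were of this KPC line and were lysed with cycloheximide, and each had 2 libraries of ribosome profiling and 2 of RNA-seq, 12 libraries in all. The labels do not tell how long PBS was given, and 1 set of PBS libraries serves as the control of both times. The question put to these genes was how the ER folding and degradation machinery is translated and expressed while the drug acts.

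Proteins that enter the ER are held by chaperones of the Hsp70 and Hsp90 families, and those that carry sugar chains pass through a cycle of the lectins calnexin and calreticulin. Isomerases form and rearrange disulfide bonds or turn proline bonds, and proteins that fail to fold are trimmed, recognised by lectins, passed through the membrane to a ubiquitin ligase and pulled out by an ATPase for the proteasome. Many of these genes are targets of the unfolded protein response (UPR), whose factors ATF6 and XBP1s bind the ER stress response element (ERSE) in their promoters, and pancreatic secretory cells are known for a large ER.

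In ribosome profiling, the fragments of mRNA protected by ribosomes (footprints) measure how much of a coding sequence is being translated relative to the rest. Rises and falls here are therefore relative, and total translation was not measured in these libraries. By puromycin incorporation, the study reports less protein synthesis with Cis, a change of the total that these values do not show. RNA-seq measures the mRNA, and footprints over RNA give the translation efficiency (TE). The values are RPKM, reads scaled to length and library size. Length is that of the coding sequence in footprint libraries and of the whole transcript in RNA-seq. Footprint libraries held 3375480 to 5204127 reads and RNA libraries 862476 to 1341584 reads once 3 transcripts that took 51.8 to 56.6% of them were set aside, so RNA values rest on fewer reads. Log2(RPKM + 0.5), scaled between libraries, was tested with limma across all transcripts whose mean RPKM reached 1, and a gene is called higher or lower where the adjusted p was under 0.05. Of the 38 genes, 37 passed this filter in both assays. Derl3, a derlin of the ERAD channel, did not: it had 1 footprint in PBS replicate 1, 2 RNA reads in PBS replicate 2 and none with Cis. The labels do not say that libraries came from separate cultures, so p-values measure the spread between these libraries, and an exact permutation test of 2 against 2 could not go below 0.333. All 8 epithelial markers had a read in some library, although Epcam was at most 1.83 RPKM and Cldn4 at most 0.94 RPKM in footprints. Their summed footprints were 9113 to 9794 RPKM with PBS, 9314 to 9371 RPKM at 6 h and 6728 to 6861 RPKM at 21 h. Most of the sum came from Krt8, Krt18 and Krt19, and the markers did not move together. Krt8 went from 4819 and 4679 RPKM with PBS to 3214 and 3261 at 21 h. Sox9 went from 13.0 and 11.1 RPKM to 30.9 and 22.8. Of 7 tested markers, footprints of 4 were called lower and 1 higher at 21 h against PBS, beside 20.2% and 18.9% of all transcripts. The part of these marker changes in the results was not tested. In footprints, fibroblast markers summed to 10.4 to 23.5 RPKM, immune markers to 1.63 to 6.14 RPKM (Cd3e at 0) and endothelial markers to at most 0.666 RPKM (Tek at 0). Of 6 acinar markers, 2 had a read, with sums of 4.11 to 7.59 RPKM, and Cpa1, Ptf1a, Amy2a1 and Ctrb1 were at 0. In bulk lysates, fewer cells of a kind and less RNA per cell cannot be told apart.

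The promoters are shown for 3 genes that carry an ERSE and whose footprints went different ways at 21 h: Hspa5 (ENSMUSG00000026864), the Hsp70 chaperone BiP, Hsp90b1 (ENSMUSG00000020048), the Hsp90 chaperone Grp94, and Syvn1 (ENSMUSG00000024807), the ubiquitin ligase HRD1. Each sequence is the 250 bases before the transcription start, 5′ to 3′ on the gene's strand, from RefSeq on GRCm38.p6. Capitals mark the ends of each ERSE, CCAAT, 9 bases and CCACG, or the same on the other strand, ATTGG last and CGTGG first. The Hspa5 window lies at chr2:34771840-34772089 on the plus strand, that of Hsp90b1 at chr10:86705445-86705694 on the minus strand and that of Syvn1 at chr19:6046326-6046575 on the plus strand.
Hspa5: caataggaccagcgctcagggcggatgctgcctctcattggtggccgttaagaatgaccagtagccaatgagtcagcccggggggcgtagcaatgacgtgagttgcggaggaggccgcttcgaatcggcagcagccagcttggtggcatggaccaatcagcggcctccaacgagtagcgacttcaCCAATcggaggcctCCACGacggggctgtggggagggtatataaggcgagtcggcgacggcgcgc
Hsp90b1: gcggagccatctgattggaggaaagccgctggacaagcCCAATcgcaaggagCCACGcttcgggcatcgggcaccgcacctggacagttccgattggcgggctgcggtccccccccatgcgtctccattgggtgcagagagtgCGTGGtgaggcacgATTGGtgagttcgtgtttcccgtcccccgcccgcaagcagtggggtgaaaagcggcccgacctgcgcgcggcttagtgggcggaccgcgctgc
Syvn1: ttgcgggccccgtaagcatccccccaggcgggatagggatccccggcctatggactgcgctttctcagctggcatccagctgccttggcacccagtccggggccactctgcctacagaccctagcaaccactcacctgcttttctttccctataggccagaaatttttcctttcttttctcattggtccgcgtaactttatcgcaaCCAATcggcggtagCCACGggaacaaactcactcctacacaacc
Hspa5 had its exact ERSE from 65 to 47 bases before the start and Syvn1 from 44 to 26 bases before it. Hsp90b1 held a pair, from 212 to 194 bases on the gene's strand and from 107 to 89 bases on the other strand.

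Windows of 250 bases before to 50 after the start were found for 32 of the 38 genes, and Hyou1, Manf, Sil1, Erp29, Derl1 and Erlec1 had none. An exact ERSE on either strand lay in 9 of the 32 (28.1%), against 37 of 27025 genes in the whole RefSeq table (0.137%), these 9 included. By window, of which a gene may have several, it lay in 39 of 32851 (0.119%). To compare the elements, the ERSE of the other 6 genes are shown with 10 bases on each side, on the gene's strand, ends in capitals.
Calr: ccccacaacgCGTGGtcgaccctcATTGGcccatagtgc
Canx: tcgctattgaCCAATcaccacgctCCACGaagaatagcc
Creld2: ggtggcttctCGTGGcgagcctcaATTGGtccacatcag
Derl3: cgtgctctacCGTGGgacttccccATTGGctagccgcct
Dnajc3: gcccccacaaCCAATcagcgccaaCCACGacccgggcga
Pdia6: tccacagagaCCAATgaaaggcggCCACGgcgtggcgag
The windows lie at chr8:84846882-84847181 (Calr, minus strand), chr11:50325624-50325923 (Canx, minus), chr15:88819396-88819695 (Creld2, plus), chr10:75893148-75893447 (Derl3, plus), chr14:118937682-118937981 (Dnajc3, plus) and chr12:17266339-17266638 (Pdia6, plus). ERSE-II, ATTGG, 1 base and CCACG, was found in Herpud1 and Dnajb11 (12 of all windows, 0.0365%), and the UPRE core TGACGTGG in Txndc11, Txndc5, Ube2j1 and Vcp (0.676% of all windows). Both strands were searched, and the ERSE and the UPRE core share the letters CGTGG. A match of letters is a description and not a bound site.

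In PBS cells the genes were among the more translated ones. Their footprint RPKM had a median percentile of 79.2 among all tested transcripts, with 31 of 37 above the 50th, their RNA had a median percentile of 68.2 and their TE one of 75.1. P4hb, the protein disulfide isomerase, had the highest footprint level of the list (1368 ± 36.0 RPKM, SD, n = 2), followed by Canx, calnexin (1037 ± 87.3), Calr, calreticulin (1011 ± 119), and Hspa5 (901 ± 30.5). The libraries of Canx and Calr overlapped each other, and both Hspa5 libraries were below those of P4hb. The highest TE was that of Manf, a small ER protein that binds BiP, at 23.1 (percentile 99.0 of all tested), and the lowest that of Fkbp2, an ER prolyl isomerase, at 0.169 (percentile 0.118). Fkbp2 had 6 to 17 footprints a library against 31 to 62 RNA reads over its deposited transcript, and whether that transcript is the one these cells express was not tested, so its TE may not be that of the gene.

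By share of reads, these genes took fewer of the footprints with Cis, while their share of RNA reads was within 0.838 to 0.898% in every library. The 38 genes together took 1.27 and 1.38% of all footprints with PBS, 1.19 and 1.21% at 6 h and 1.10 and 1.05% at 21 h. The groups did not overlap and were ordered PBS, 6 h, 21 h. Chaperones went from 0.705 ± 0.0552% (SD, n = 2) with PBS to 0.558 ± 0.0201% at 21 h and isomerases from 0.474 ± 0.0198% to 0.354 ± 0.0179%, and in both lists the 21 h libraries lay below the PBS libraries. The summed ERAD share went the other way, from 0.146 ± 0.000753% to 0.162 ± 0.00168%, with both 21 h libraries above both PBS libraries. Vcp, the ATPase p97, gave 4238 of the 7621 ERAD reads in PBS replicate 1 and 3455 of 5919 in 21 h replicate 1. This share is thus mostly that of 1 gene, whose own footprint change was not called, and does not describe each ERAD gene. In RNA, without the 3 most abundant transcripts, isomerases went from 0.338 ± 0.0102% to 0.301 ± 0.00789% and ERAD genes from 0.119 ± 0.00631% to 0.143 ± 0.00132%, while the PBS and 21 h libraries of the chaperones overlapped (0.399 and 0.438% with PBS, 0.413 and 0.442% at 21 h). These shares were not tested one by one, since no exact test of 2 against 2 could pass the threshold.

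**Figure D1:**
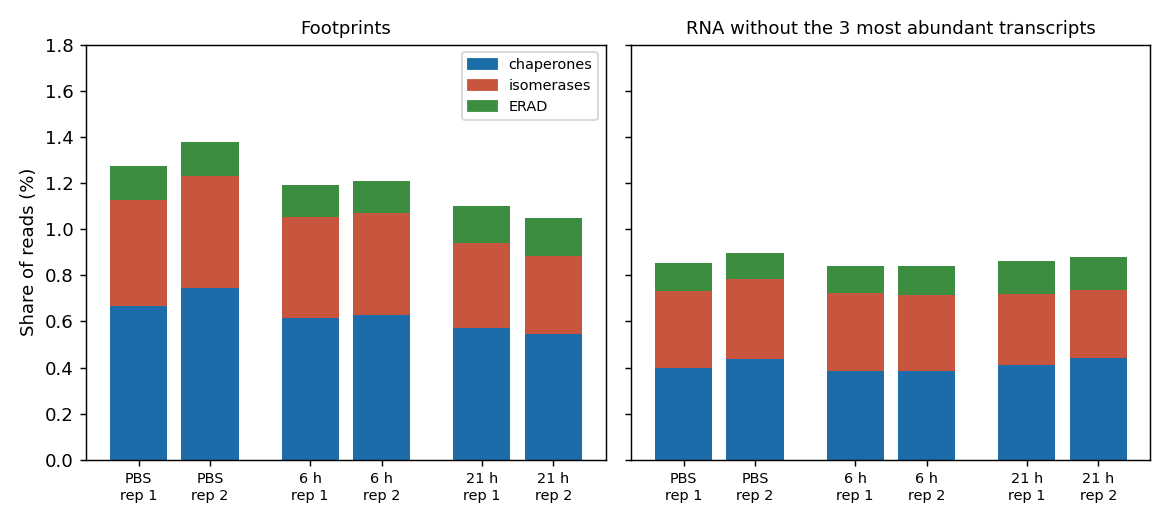
Share of the reads of each library (%, y axis from 0) that fell on the 13 chaperones, 12 isomerases and 13 ERAD genes, stacked, for footprints (left) and RNA without the 3 most abundant transcripts (right), with 2 libraries (rep) for PBS, 6 h and 21 h. The footprint stacks step down from 1.27 and 1.38% with PBS to 1.10 and 1.05% at 21 h, while the RNA stacks stay between 0.838 and 0.898%.

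After 21 h, footprints of 20 of the 37 genes fell and those of 3 rose, 14 not being called. Among all 10383 transcripts tested, 20.2% were called lower and 18.9% higher. The median log2 fold change of the genes was -0.30 against 0.01 for all tested. Of the isomerases, 10 of 12 were called lower and 0 higher (median -0.40), of the chaperones, 7 of 13 lower and 1 higher (median -0.30), and of the ERAD genes, 3 of 12 lower and 2 higher (median 0.12). Of the 23 calls, 12 passed without each library in turn and under every other setting tried, and without PBS replicate 2 there were 12 calls instead of 23 (10 lower, 2 higher). In RNA, 7 of 37 fell and 3 rose, beside 12.2% called lower and 11.6% called higher among all 9443 transcripts, with a median of -0.17 against 0.02. The RNA calls were 5 isomerases and 2 chaperones lower, and 1 chaperone and 2 ERAD genes higher. They came to 3 without PBS replicate 2, 5 without PBS replicate 1 and 6 without 21 h replicate 2 of RNA-seq.

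**Figure D2:**
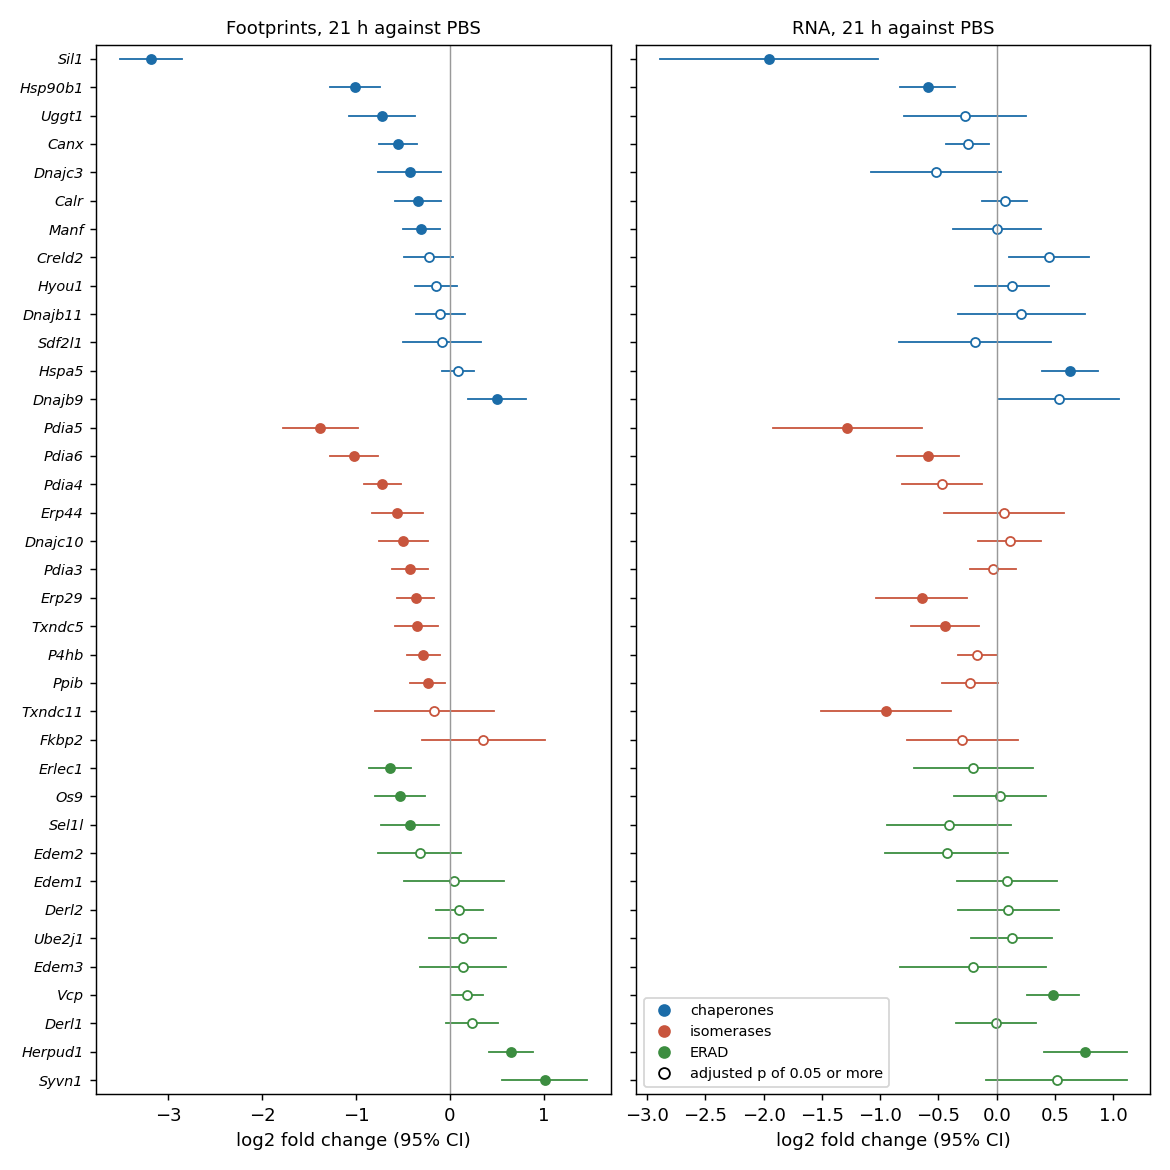
Log2 fold change at 21 h against PBS of the 37 tested genes (points, with 95% confidence intervals from limma as lines) in footprints (left) and RNA (right), coloured by list and ordered by footprint change within it, on separate x axes. Filled points have an adjusted p under 0.05, open points do not. Isomerase points lie left of 0 in footprints for 11 of 12 genes, and Sil1 lies farthest left in both assays (-3.19 and -1.95).

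Among the chaperones, the drop of Sil1, which exchanges the nucleotide of BiP, was the largest of the list. Its footprints were 37.5 and 41.7 RPKM with PBS, 24.3 and 25.7 at 6 h and 4.08 and 3.90 at 21 h, from 272 and 271 reads down to 21 and 19. The groups did not overlap and both 21 h libraries were far below the rest, with a log2 fold change of -3.19 (95% CI -3.52 to -2.86, adjusted p = 5.77e-06, limma). Sil1 RNA was 8.35 and 8.50 RPKM with PBS, 10.6 and 3.81 at 6 h and 1.26 and 2.81 at 21 h, a change of -1.95 (adjusted p = 0.00934) that rests on 35 and 42 reads against 5 and 10. The 6 h RNA libraries lay on both sides of the PBS ones. The RNA call was lost without PBS replicate 1 (adjusted p = 0.0557), PBS replicate 2 (0.0528) or 21 h replicate 1 (0.0553).

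Hsp90b1 fell in both assays and Hspa5, its partner in the ER lumen, did not. Hsp90b1 footprints were 539 and 642 RPKM with PBS, 432 and 435 at 6 h and 328 and 273 at 21 h, and its RNA was 97.6 and 104, then 71.1 and 84.2, then 66.4 and 75.7 RPKM. Footprints stepped down without overlap, and in RNA both Cis times lay below PBS, with 6 h and 21 h libraries overlapping only before scaling. With voom on reads recovered from the RPKM values, its RNA was lower at 21 h than at 6 h (-0.29, adjusted p = 0.0168). Voom called 1027 of 9443 transcripts lower there. At 21 h against PBS the changes were -1.01 in footprints (95% CI -1.28 to -0.74, adjusted p = 0.000364) and -0.59 in RNA (-0.83 to -0.35, adjusted p = 0.00403), and neither call was lost when a library was left out, although that of RNA was lost without the variance trend. Hspa5 footprints were 879.5 and 923 RPKM with PBS, 825 and 841 at 6 h and 957 and 1006 at 21 h. Before scaling, the 21 h libraries lay just above the PBS ones, and the difference of 0.09 was not called (95% CI -0.09 to 0.26, adjusted p = 0.393, limma). Hspa5 RNA was 81.0 and 91.6 RPKM with PBS, 75.7 and 82.9 at 6 h and 127 and 158 at 21 h, so that only the 21 h libraries were high. Its RNA rose by 0.63 (95% CI 0.39 to 0.87, adjusted p = 0.00324) and was called in every setting tried.

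Canx, the membrane lectin, fell in footprints. It had 976 and 1099 RPKM with PBS, 957 and 947 at 6 h and 750.01 and 699.9 at 21 h, and its RNA had 151 and 169, 135 and 133, and 139 and 146 RPKM. In footprints the 21 h libraries were the lowest, and in RNA both Cis times lay below PBS. The changes at 21 h were -0.55 in footprints (adjusted p = 0.00162) and -0.25 in RNA (adjusted p = 0.0519, or 0.000196 with voom on reads recovered from the RPKM values). In RNA at 21 h against PBS, voom called 1523 of 9443 transcripts lower. Uggt1, the folding sensor that puts a glucose back on misfolded glycoproteins, had footprints of 18.4 and 21.2 RPKM with PBS, 14.7 and 16.1 at 6 h and 12.7 and 11.4 at 21 h. The 3 groups did not overlap, with a change of -0.73 at 21 h (adjusted p = 0.0064, limma), and an adjusted p of 0.0542 without PBS replicate 2. Uggt1 RNA was 4.32 and 5.30, 2.90 and 3.60, and 4.28 and 3.97 RPKM, lowest at 6 h (-0.27 at 21 h, adjusted p = 0.444). Calr fell by 0.34 in footprints (adjusted p = 0.0359, limma), a call lost without PBS replicate 2, 21 h replicate 2 or either 6 h replicate (adjusted p = 0.0606 to 0.19), and its RNA differed by 0.07 (adjusted p = 0.61).

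Co-chaperones of BiP did not move as a block. Dnajb9, a J-domain protein, was the 1 chaperone whose footprints rose (0.50, adjusted p = 0.0181), from 46.7 and 37.4 RPKM with PBS to 63.1 and 58.9 RPKM at 21 h, and the call was lost without PBS replicate 2 (adjusted p = 0.116) or 21 h replicate 1 (0.0678). Dnajc3, a J-domain protein that also restrains the kinase PERK, fell by 0.43 (adjusted p = 0.0487, lost without each of 5 libraries, highest adjusted p = 0.22 without 21 h replicate 2) and Manf fell by 0.30 (adjusted p = 0.0209, up to 0.121 without 21 h replicate 2, and lost also without either PBS replicate). Hyou1, an Hsp110-like exchange factor of BiP, Dnajb11, a J-domain protein, Sdf2l1, its partner, and Creld2, an ER stress-induced protein, were not called, with footprint differences of -0.15, -0.10, -0.09 and -0.23. Sdf2l1 RNA rested on 8 to 15 reads a library.

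**Figure D3:**
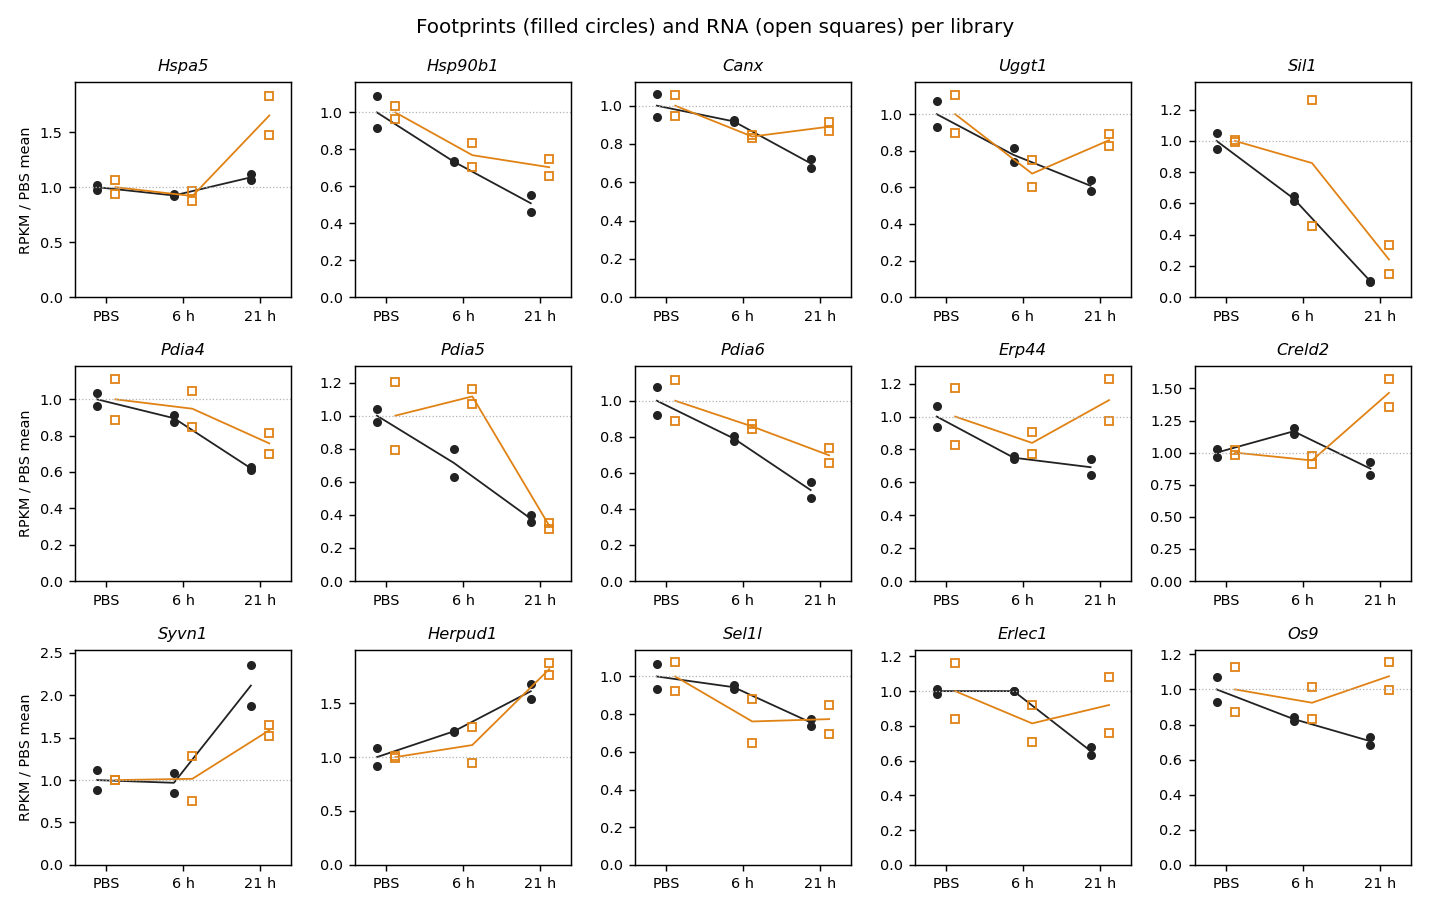
RPKM of each library divided by the mean of the PBS libraries of the same assay (y axis from 0, separate for each gene) for 15 genes, with footprints as filled circles and RNA as open squares for PBS, 6 h and 21 h, and lines through the means of 2 libraries. Footprints of Hsp90b1, Pdia6 and Sil1 step down at both times, those of Syvn1 and Herpud1 are high at 21 h, and for Hspa5 and Creld2 the RNA is high at 21 h where the footprints are not.

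The isomerases fell most evenly. Pdia5, a disulfide isomerase of low level, had footprints of 17.8 and 19.4 RPKM with PBS, 11.7 and 14.9 at 6 h and 6.65 and 7.38 at 21 h, and RNA of 4.04 and 2.67, 3.90 and 3.59, and 1.19 and 1.06 RPKM. Footprints were lower in each Cis group without overlap, whereas RNA was low in the 21 h libraries alone, on 5 and 4 reads. It fell by 1.38 in footprints (95% CI -1.78 to -0.98, adjusted p = 0.000573) and by 1.28 in RNA (-1.92 to -0.64, adjusted p = 0.0109), the latter lost without PBS replicate 1 (adjusted p = 0.103) or 21 h replicate 2 (0.0524). Pdia6, the isomerase P5, which works beside BiP, had footprints of 514 and 600.2 RPKM with PBS, 449 and 433 at 6 h and 305 and 257 at 21 h. Its RNA was 57.7 and 72.5, 55.0 and 56.7, and 42.6 and 48.2 RPKM. Footprint groups were ordered PBS, 6 h, 21 h without overlap. In RNA the 21 h libraries were the lowest, and PBS replicate 1 was close to the 6 h libraries. The changes at 21 h were -1.02 in footprints (95% CI -1.28 to -0.77, adjusted p = 0.000275, limma) and -0.59 in RNA (-0.86 to -0.32, adjusted p = 0.00708), the RNA call being lost without PBS replicate 2 (adjusted p = 0.0634).

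Pdia4, the isomerase ERp72, had 195 and 209.5 footprint RPKM with PBS, 185 and 178 at 6 h and 127 and 124 at 21 h. Its 21 h libraries stood well below the other 4 (-0.72, 95% CI -0.92 to -0.52, adjusted p = 0.000424, limma), and its RNA of 27.8 and 34.8, 32.8 and 26.5, and 21.8 and 25.5 RPKM was also lowest at 21 h (-0.47, adjusted p = 0.0504, or 0.00434 with voom). With voom, P4hb RNA was also called lower (-0.17, adjusted p = 0.0159), beside 1523 of 9443 transcripts. Erp44, which retrieves thiol-bound clients from beyond the ER, had footprints of 59.2 and 51.8 RPKM with PBS, 41.1 and 42.1 at 6 h and 35.6 and 41.1 at 21 h. Footprints of both Cis groups lay below PBS (-0.56 at 21 h, adjusted p = 0.00632), while its RNA of 5.73 and 8.14, 5.37 and 6.27, and 8.51 and 6.75 RPKM overlapped between all groups (0.06, 95% CI -0.45 to 0.57, adjusted p = 0.876). The other called isomerases fell less in footprints: Dnajc10, a reductase with a J domain (-0.50), Pdia3, the partner of the lectins (-0.43), Erp29 (-0.37), Txndc5, with thioredoxin domains (-0.36), P4hb (-0.28) and Ppib, a prolyl isomerase (-0.24). Of these, Pdia3 and Erp29 were called without each library, while Dnajc10, P4hb, Txndc5 and Ppib were each lost without PBS replicate 2 (adjusted p = 0.0614, 0.0675, 0.103 and 0.18). The other libraries whose absence cost a call were 21 h replicate 2 for Dnajc10 and P4hb (0.0544 and 0.0975), PBS replicate 1 and 21 h replicate 1 for Txndc5 (0.0535 and 0.0974), and all 6 libraries for Ppib (up to 0.201 without 21 h replicate 2).

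Isomerase RNA fell for Erp29 (-0.64, adjusted p = 0.0259), Txndc5 (-0.44, adjusted p = 0.0349) and Txndc11 (-0.95, adjusted p = 0.0217, limma), a membrane protein with thioredoxin domains whose footprints were not called (-0.17, 95% CI -0.80 to 0.47). Each of these RNA calls was lost without PBS replicate 2 (adjusted p = 0.094, 0.226 and 0.0823) and without 21 h replicate 2 (0.139, 0.13 and 0.106). It was also lost without PBS replicate 1 for Erp29 (0.125) and Txndc11 (0.124), and without 21 h replicate 1 for Txndc5 (0.0833). Txndc11 had 12 to 36 RNA reads a library. Pdia3 and Dnajc10 RNA differed by -0.03 and 0.11 (95% CI -0.22 to 0.17 and -0.16 to 0.38), so their falls in footprints had no counterpart that could be detected in RNA.

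In ERAD, footprints of Syvn1 and Herpud1 rose, those of Sel1l, Erlec1 and Os9 fell, and those of the other 7 tested genes were not called. Syvn1 footprints were 11.5 and 9.0 RPKM with PBS, 11.1 and 8.71 at 6 h and 19.2 and 24.2 at 21 h. The PBS and 6 h libraries overlapped and both 21 h libraries were higher, by 1.01 (95% CI 0.56 to 1.46, adjusted p = 0.00444, limma), a call kept without each library. Syvn1 RNA was 3.17 and 3.18, 4.07 and 2.38, and 4.83 and 5.25 RPKM, on 19 to 39 reads, and although the 21 h libraries were the highest, the difference of 0.51 was not called (95% CI -0.09 to 1.12, adjusted p = 0.198). Herpud1, a membrane protein of the HRD1 complex, had footprints of 89.9 and 76.1 RPKM with PBS, 103 and 103 at 6 h and 128 and 139 at 21 h, and RNA of 18.5 and 18.2, 17.3 and 23.5, and 34.3 and 32.4 RPKM. Its footprints were ordered PBS, 6 h, 21 h without overlap, and its RNA was high at 21 h. They rose by 0.65 (adjusted p = 0.00149) and 0.76 (adjusted p = 0.00853), the RNA call being lost without PBS replicate 2 (adjusted p = 0.0553) or 21 h replicate 1 (0.0504).

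Sel1l, the adaptor that holds Syvn1 in its complex, had footprints of 23.6 and 27.1 RPKM with PBS, 23.7 and 24.1 at 6 h and 19.6 and 18.7 at 21 h. Only the 21 h libraries were low (-0.43, adjusted p = 0.034, limma), and the call was lost without PBS replicate 2 (adjusted p = 0.191), 21 h replicate 2 (0.109), 21 h replicate 1 (0.0694) or either 6 h replicate (0.0567 and 0.0568). Its RNA of 4.71 and 5.47, 3.28 and 4.47, and 3.54 and 4.33 RPKM was lower with Cis in all 4 libraries but not called (-0.41 at 21 h, adjusted p = 0.241). Erlec1, a lectin that reads trimmed sugar chains, had footprints of 70.4 and 72.6, 71.6 and 71.4, and 48.5 and 45.2 RPKM. Its 21 h libraries stood apart from 4 nearly equal ones (-0.64, 95% CI -0.86 to -0.42, adjusted p = 0.00132, limma), and its RNA of 13.8 and 9.94, 10.9 and 8.38, and 8.99 and 12.8 RPKM overlapped between groups (-0.20, adjusted p = 0.57). Os9, the other lectin of this kind, had footprints of 53.6 and 62.0, 48.6 and 47.5, and 42.0 and 39.5 RPKM, ordered PBS, 6 h, 21 h (-0.53, adjusted p = 0.00751, or 0.0535 without PBS replicate 2). The RNA of Os9 was 18.7 and 14.4, 13.8 and 16.8, and 16.5 and 19.1 RPKM and overlapped between groups (0.03, adjusted p = 0.93).

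The remaining ERAD genes were not called in footprints at 21 h by limma on log2 RPKM. They were Derl1 (0.23) and Derl2 (0.10), derlins of the channel, Edem1 (0.04), Edem2 (-0.32) and Edem3 (0.14), which trim mannose, Ube2j1 (0.14), the conjugating enzyme beside Syvn1, and Vcp (0.18, adjusted p = 0.0756, or 0.0427 with voom), the ATPase p97. In footprints at 21 h against PBS, voom called 2262 of 10383 transcripts higher. Vcp RNA, at 51.8 and 52.8 RPKM with PBS, 52.4 and 58.4 at 6 h and 74.4 and 80.8 at 21 h, rose by 0.48 (adjusted p = 0.00797, limma). The 21 h libraries did not overlap with the others, but the call was lost without PBS replicate 1 (adjusted p = 0.0523) or PBS replicate 2 (0.0517).

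TE did not pass the threshold for any of the 37 genes at 21 h against PBS, beside 0.258% called higher and 0.151% called lower among 9295 transcripts. At an unadjusted p under 0.05, 12 genes were lower and 1 higher, where 680 and 503 of the 9295 transcripts were, and the median was -0.12 against -0.04 for all tested. Chaperones lay lowest, with 11 of 13 below 0 and a median of -0.31, against -0.11 for isomerases and -0.01 for ERAD genes. Of all 9295 transcripts, 5091 were below 0. Hspa5, whose TE was 10.9 and 10.1 with PBS, 10.9 and 10.1 at 6 h and 7.53 and 6.37 at 21 h, had the smallest adjusted p of the list (-0.54, 95% CI -0.84 to -0.25, adjusted p = 0.108, limma). With voom, 4 genes had a lower TE at 21 h than with PBS, beside 1.27% of all transcripts: Hspa5 (adjusted p = 0.000575), Dnajc10 (0.00711), Calr (0.0331) and Pdia3 (0.0449). All 4 were also below 0 in the fit on log2 RPKM (-0.54, -0.61, -0.41 and -0.40).

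**Figure D4:**
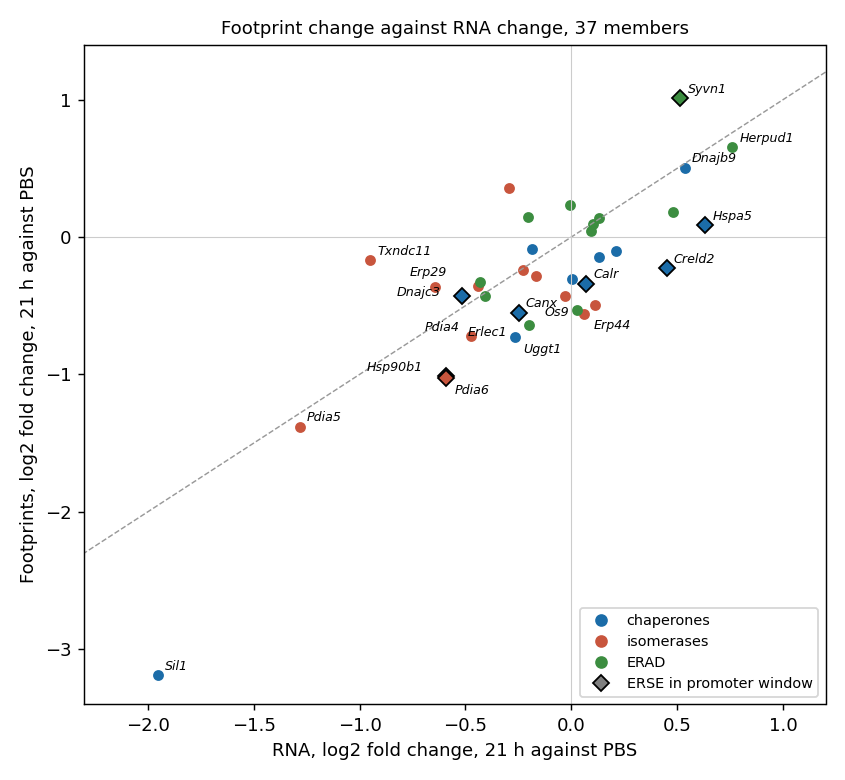
Log2 fold change at 21 h against PBS in RNA (x axis) and in footprints (y axis) for the 37 tested genes, 1 point each, coloured by list, with diamonds for genes with an exact ERSE in the promoter window and a dashed line where both changes are equal. Hsp90b1 and Pdia6 lie together at -1.01 and -1.02 in footprints, Hspa5 lies at 0.63 in RNA and 0.09 in footprints, and Syvn1 is above the line.

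At 6 h no gene of the list was called in footprints, RNA or TE by limma on log2 RPKM. Among all transcripts, 1.05% had higher and 0.992% lower footprints at 6 h, 0% were called either way in RNA, and 0% in TE. At an unadjusted p under 0.05, 10 of the 37 genes differed in footprints, 8 of them lower, 2 in RNA and 5 in TE, where 2217 of 10383 transcripts did in footprints, 1086 of 9443 in RNA and 710 of 9295 in TE. The median footprint difference was -0.09 against -0.01 for all tested. Sil1 (-0.67, adjusted p = 0.0543) and Hsp90b1 (-0.46, adjusted p = 0.0847) were nearest to the threshold. Under voom, 7 genes fell in footprints, beside 7.92% of all transcripts called lower: Hsp90b1 (-0.45, adjusted p = 0.000316), Sil1 (-0.67, 0.000897), Pdia3 (-0.32, 0.00533), Pdia6 (-0.35, 0.00655), Erp44 (-0.43, 0.0187), Uggt1 (-0.38, 0.0256) and Pdia5 (-0.53, 0.0463). In RNA at 6 h, voom called 1 gene lower, Hsp90b1 (-0.31, adjusted p = 0.0238), beside 1.82% of all transcripts, and in TE it called 0 of the list.

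Between 6 h and 21 h, footprints of 13 of the 37 genes fell and those of 3 rose, beside 15.7% called lower and 15% called higher among all transcripts. In RNA, 4 fell and 3 rose, beside 8.21% lower and 7.53% higher, and with the RPKM values unscaled, 2 were called lower and 5 higher, with Pdia6 and Txndc5 no longer called. The median of all transcripts was then 0.15 in place of 0.01. The comparison shares its 21 h libraries with the one against PBS, so the calls of both are not independent. In TE, 1 gene was called lower and 0 higher, beside 0.42% lower and 0.592% higher. This was Creld2, with footprints of 42.8 and 45.6 RPKM with PBS, 52.6 and 50.5 at 6 h and 36.4 and 40.9 at 21 h, and RNA of 13.7 and 13.1, 12.2 and 13.0, and 21.1 and 18.2 RPKM. Footprints were highest at 6 h and RNA highest at 21 h, and the TE of 3.13 and 3.47, 4.32 and 3.89, and 1.73 and 2.25 was lowest at 21 h. The TE difference of -0.90 (95% CI -1.31 to -0.50, adjusted p = 0.0436, limma) missed the threshold without any library but 21 h replicate 2 of RNA-seq, with adjusted p up to 0.189 without 6 h replicate 1 of the footprints. Voom did not call it and called Hspa5 (-0.46, adjusted p = 0.00783), Dnajc10 (-0.56, 0.023) and Canx (-0.35, 0.0401) lower, beside 1.36% of all transcripts.

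Genes with an ERSE in the window did not move in a single direction. Of the 9, 8 were tested. In footprints at 21 h, 1 rose (Syvn1) and 5 fell (Calr, Canx, Dnajc3, Hsp90b1 and Pdia6), with a median of -0.38 and a range of -1.02 to 1.01. Over all 10383 transcripts, 18.9% were called higher and 20.2% lower. Of 23 tested genes with a window but no ERSE, 2 rose and 11 fell (median -0.24), and of the 6 without a window, 0 rose and 4 fell. In RNA, 1 of the 8 rose (Hspa5) and 2 fell (Hsp90b1 and Pdia6), with a median of -0.09. Over all 9443 transcripts, 11.6% were called higher and 12.2% lower. Herpud1, with its ERSE-II from 52 to 42 bases before the start, rose in both assays. Dnajb11, whose ERSE-II lay downstream of the start, was called in neither.

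Other genes of the pathway were taken from lists of symbols. Their counts at 21 h stand beside 18.9% called higher and 20.2% called lower in footprints over all 10383 transcripts. Of 31 tested genes of ER folding outside the 38 (35 listed), footprints of 8 rose and 7 fell at 21 h, with a median of 0.10. The largest calls were Fkbp14, a prolyl isomerase (1.43), Dnajc1, a J-domain protein (-1.24), and Tor1a, an ER ATPase (0.87). Of 39 tested genes of ERAD (40 listed), 11 rose and 7 fell, with a median of 0.05, led by Faf1, a cofactor of Vcp (-1.89), Ngly1, which removes sugar chains from proteins in the cytosol (-1.53), and Yod1, a deubiquitinase that works with Vcp (1.02). Of 16 tested UPR sensors and factors (17 listed), 6 rose and 3 fell, with a median of -0.09. Atf3 (3.65, adjusted p = 1.11e-06), Ddit3, the factor CHOP (3.59, adjusted p = 1.11e-06), and Ppp1r15a, GADD34 (2.93, adjusted p = 2.28e-05, limma), stress genes downstream of PERK and other eIF2α kinases, rose most. Atf3 and Ddit3 were also the 2 genes of these lists called at 6 h (0.98 and 0.70), and Atf4, the factor upstream of them, had a higher TE at 21 h than with PBS (0.95, adjusted p = 0.036). By immunoblot, the study reports PERK protein and eIF2α phosphorylation as largely intact after chemotherapy. What raised Atf3, Ddit3, Ppp1r15a and Atf4 was not tested. At 21 h against 6 h a higher TE was called for Atf4 and for 1 of the other ERAD genes, Nsfl1c (0.79, adjusted p = 0.0495), a cofactor of Vcp.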

How the data were processed

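Ribosome profiling and RNA-seq of KPC cells gave 12 libraries, 2 for each assay and group, with groups and replicate numbers from the labels and the dose from the study's methods. The genotype of the line is not reported in full here. The authors deposited RPKM for each library, with 1 transcript standing for each gene, replicates not pooled, and transcripts without a read were set to 0. Per the labels, the processing notes name cutadapt, STAR and GRCm39, without versions. Coordinates here are of the RefSeq promoter table on GRCm38.p6 and were not mixed with the files. RPKM times length gave whole multiples of a read for 100% of the values (tolerance 0.01), and so reads and depth. A fold change on log2(RPKM + 0.5) understates low genes, and reads without molecular identifiers cover counting error only.

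Footprint and RNA values were scaled separately with median-of-ratios factors, filtered at a mean scaled RPKM of at least 1 and fitted with limma 3.58.1 (R 4.3.3, lmFit, eBayes with trend), 3 groups in a model, two-sided, with Benjamini-Hochberg adjustment over all transcripts and a threshold of 0.05. TE was the interaction of assay and treatment over 12 libraries. A TE value of a library is its footprint RPKM over that of the RNA library of the same number. Tests were also run on simulated reads with the same spread for every transcript, so their outcome does not give the error rate in these libraries. Percentiles and shares were computed with Python 3.11.15, pandas 2.3.3, numpy 2.4.6 and matplotlib 3.10.9.

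The members and the lists were chosen with earlier results of these data known. Values per library are given for Hspa5, Hsp90b1, Pdia6, Syvn1 and Sel1l, for the 4 genes of each list with the largest footprint change at 21 h and for genes called in TE, and for the other lists the 3 largest called changes are named. Values per library of Dnajb9 and Vcp were added after they were seen. Replicate numbers were not stated to pair libraries, and deviations of same-numbered libraries did not correlate (r = -0.0143 to 0.0215 across transcripts). Between replicates, the chi-square of read counts was 1.46 to 4.12 times its degrees of freedom, so none were the same library. Alternatives were other pseudocounts, filters, scalings, variance models and samples, the replicate block, voom (limma) run on reads recovered from RPKM, and each library left out.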

Additional observations from a re-analysis of the deposited data

Results flagged for a closer look

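The change from 6 h to 21 h is the difference between both times' effects against PBS, tested in the same limma model (adjusted p under 0.05), and 24 results of the list passed it. In footprints, the difference (21 h minus 6 h, log2) was below 0 for 6 chaperones: Sil1 at -2.52, Hsp90b1 at -0.56, Dnajc3 at -0.47, Creld2 at -0.43, Canx at -0.42 and Manf at -0.36. It was below 0 for 6 isomerases, Pdia5 at -0.89, Pdia6 at -0.67, Pdia4 at -0.55, Dnajc10 at -0.43, P4hb at -0.31 and Erp29 at -0.28. Among ERAD genes, Erlec1 stood at -0.63, Syvn1 at 1.07, Herpud1 at 0.35 and Vcp at 0.31.

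In RNA the difference was -1.65 for Sil1, -1.50 for Pdia5, -0.48 for Txndc5 and -0.45 for Pdia6, and 0.68 for Hspa5, 0.56 for Herpud1 and 0.33 for Vcp. In TE it was -0.90 for Creld2. For Syvn1, Erlec1, Pdia4, Pdia6 and Sil1 the footprint difference was called without each library and in every setting tried, and for Pdia5 the same held in RNA. Hspa5 was called in RNA without each library. Leaving out 6 h replicate 2 of the footprints ended the footprint calls of Hsp90b1 (adjusted p = 0.0563), Pdia5 (0.0581), Canx (0.0609), Manf (0.0686), Creld2 (0.0861), Vcp (0.0891), P4hb (0.116), Herpud1 (0.134), Dnajc10 (0.143), Erp29 (0.174) and Dnajc3 (0.234). Without 6 h replicate 1 the same calls except those of Hsp90b1 and Pdia5 were lost, with adjusted p from 0.062 to 0.132. Leaving out 21 h replicate 2 ended those of Herpud1, Dnajc10, Erp29, P4hb, Manf and Dnajc3 (0.0657 to 0.177), 21 h replicate 1 those of Creld2 and Erp29 (0.0897 and 0.114), and either PBS replicate that of Dnajc3 (0.0624 and 0.061). In RNA, leaving out 21 h replicate 1 or 6 h replicate 1 ended the calls of Sil1, Txndc5, Pdia6, Herpud1 and Vcp (0.0847 to 0.221). Leaving out 21 h replicate 2 ended the last 4 of these (0.072 to 0.173), 6 h replicate 2 those of Txndc5, Pdia6 and Vcp (0.071 to 0.108), and either PBS replicate those of Herpud1 and Vcp (0.0653 to 0.0819). The RNA of Sil1 rests on 15 and 36 reads at 6 h and 5 and 10 at 21 h, and that of Pdia5 on 5 and 4 reads at 21 h. The part of read depth in these results was not tested.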

How the results depend on the processing

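No called gene changed sign under any alternative. The counts of called genes at 21 h against PBS in footprints and the 0 calls of TE at 6 h stayed within 1.5 times of the value reported under each setting with all libraries. Without the trend of variance with expression, calls came to 6 in footprints (16 as reported) and 1 in RNA (7 as reported) at 21 h against 6 h, 6 in RNA at 21 h against PBS (10 as reported) and 0 in TE. Without the filter on low RPKM, 2 RNA calls were left at 21 h against 6 h and 0 in TE, and TE also came to 0 with quantile normalization and with only the groups compared. At 6 h, 1 footprint call (Sil1) appeared with a mean RPKM of at least 5 and with only the groups compared. With voom there were 7 footprint calls and 1 RNA call at 6 h, and 4 (21 h against PBS) and 3 (21 h against 6 h) in TE. RNA calls with voom came to 13 at 21 h against PBS and 10 at 21 h against 6 h, of which 10 and 7 were lower. Quantile normalization split the RNA calls at 21 h against 6 h into 1 higher and 4 lower, where 3 and 4 were reported, and unscaled RPKM into 5 and 2.

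The replicate block gave 0, 20 and 14 footprint calls (6 h against PBS, 21 h against PBS, 21 h against 6 h), 0, 10 and 5 in RNA, and 0, 0 and 0 in TE, the TE call of Creld2 being lost. Whether equal replicate numbers pair libraries is not stated, and why these counts differ from those reported was not tested.

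With each library left out, footprint calls ranged from 0 to 1 at 6 h, from 12 to 19 at 21 h against PBS, and from 5 (without 6 h replicate 2) to 16 at 21 h against 6 h, with 7 without 6 h replicate 1 and 10 without 21 h replicate 2. RNA calls ranged from 3 to 11 at 21 h against PBS and from 2 to 5 at 21 h against 6 h, where each library left out lowered the count of 7. TE calls at 21 h against 6 h ranged from 0 to 1. Of the named calls, 12 of 23, 5 of 16, 2 of 10 and 2 of 7 (in footprints and then RNA, against PBS and then against 6 h) were kept without each library. A group left with 1 library was assumed to vary like the others. RNA depth limits Sil1, Pdia5, Txndc11 and Sdf2l1 most.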
